A study of Mus musculus with 9 samples.

Results

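Genes of the synaptic vesicle and of neuronal excitability were examined in the embryonic mouse hindgut, with and without endothelin receptor B. The set holds 35 genes, chosen by name for known roles at the presynaptic terminal, in ion channels, in transmitter receptors, in axonal adhesion and in the neuronal cytoskeleton, out of 18193 genes on the array that have a probe set naming them alone. All 35 were measured. No array value was used to choose them by rule, but the set and its grouping into 8 roles were drawn up with earlier results of these arrays known.

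RNA came from the terminal colon at embryonic day 14 by the sample labels and 14.5 by the series text, and was hybridised to 9 Affymetrix MOE430 version 2 arrays, 3 per group. Wild type embryos (arrays 1B, 1C and 1D) were compared with Ednrb null embryos, homozygous for a lacZ allele of Ednrb (arrays 29, 37 and 41), and with Ednrb NCC null embryos, labelled Ednrb-FLEX(NCC-/-) and described as mutant in NCC cells (arrays 2, 5 and 6). The labels name no strain or sex, do not spell out NCC or FLEX, do not say what drives the deletion in NCC cells, and do not say whether an array holds 1 embryo or a pool. The p-values therefore measure the spread between these arrays, part of which may be technical.

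Ednrb encodes a G protein-coupled receptor for endothelins that enteric neural crest cells require to colonise the end of the gut, where their descendants become enteric neurons and glia. In a maturing neuron, vesicles filled with transmitter dock at the active zone, SNARE proteins on vesicle and plasma membrane zip together, complexins hold the complex ready, and calcium entering through voltage-gated channels acts on synaptotagmin to trigger fusion. Voltage-gated sodium channels carry the action potential, and nicotinic receptors carry fast transmission between enteric neurons. Many of these genes are also active in endocrine cells, in muscle or in secretory cells of other kinds, so their RNA in whole gut is not neuronal alone.

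The level of a gene is given as log2 intensity of its brightest one-gene probe set, and a difference of 1 on this scale is a 2-fold change. Differences were tested with limma over all 18193 genes, and a gene was called where its adjusted p was under 0.05. Intensities of different probe sets depend on the probes as well as on the RNA, so no level is set against another gene's. In whole tissue, fewer cells of a type and less RNA per cell cannot be told apart.

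Array medians of intensity ran from 112 to 116. Ednrb fell by 1.89 in Ednrb null (limma adjusted p = 3.91e-05), with residual levels of 8.77 to 9.40 against 10.95 to 11.08 in wild type, and lay at 11.04 to 11.32 in Ednrb NCC null, where cells other than NCC cells keep the gene by the label. Where the probe set lies relative to the lacZ insertion is not stated. Smooth muscle and gut epithelium markers were bright on all arrays, with summed intensities of at least 39257 and 17972. Wild type 1C had a log2 Xist level of 6.70 against 11.60 to 14.07 on the other 8 arrays, so the arrays are not alike in sex. Wild type 1B had a summed mesothelium signal of 583 against 1932 and 2530 on the other wild type arrays.

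Promoter sequence is shown for 3 of the 4 genes that changed and for Syn1. RefSeq's table for build GRCm38.p6 held a window for 27 of the 35 genes, Scn3a not among them, 34 windows in all, each running from 250 bases before to 50 bases after a transcription start. The windows were searched on both strands for 4 motifs: the left arm TTCAGCACC and the right arm GGACAGC of RE1, the element bound by the neuronal repressor REST, the cAMP response element TGACGTCA, and the E-box CAGCTG, which proneural bHLH factors can bind. The RE1 right arm and the E-box can share the letters CAGC. The 250 bases before the start are printed 5′ to 3′ on the gene's strand, with matches in capitals. Syt1 and Syt11 are shown because both fell in both mutants, Sv2a because it rose in Ednrb null, and Syn1 because its window holds motif letters that the others lack.
Syt1, upstream start, chr10:109010976-109011225, minus strand: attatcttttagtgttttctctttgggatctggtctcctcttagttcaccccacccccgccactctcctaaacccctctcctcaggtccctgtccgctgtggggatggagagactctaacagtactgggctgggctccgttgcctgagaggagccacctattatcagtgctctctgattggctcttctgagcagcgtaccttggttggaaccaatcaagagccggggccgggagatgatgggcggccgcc
Syt11, chr3:88772600-88772849, minus strand: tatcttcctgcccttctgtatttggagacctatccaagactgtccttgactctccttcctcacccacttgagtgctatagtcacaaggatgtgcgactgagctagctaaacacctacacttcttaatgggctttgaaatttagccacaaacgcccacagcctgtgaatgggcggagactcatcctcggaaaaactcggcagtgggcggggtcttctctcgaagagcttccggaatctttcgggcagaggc
Sv2a, chr3:96180977-96181226, plus strand: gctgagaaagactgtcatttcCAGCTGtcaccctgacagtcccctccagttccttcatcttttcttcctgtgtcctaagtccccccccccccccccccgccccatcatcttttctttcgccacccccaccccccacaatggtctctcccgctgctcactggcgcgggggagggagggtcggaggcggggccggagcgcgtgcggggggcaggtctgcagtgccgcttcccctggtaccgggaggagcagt
Syn1, chrX:20920919-20921168, minus strand: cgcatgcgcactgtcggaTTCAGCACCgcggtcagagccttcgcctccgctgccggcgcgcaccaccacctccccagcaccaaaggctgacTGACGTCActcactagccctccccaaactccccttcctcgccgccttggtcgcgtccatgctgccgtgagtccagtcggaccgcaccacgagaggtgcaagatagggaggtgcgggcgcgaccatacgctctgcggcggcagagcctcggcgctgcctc
The Syn1 window holds the RE1 left arm at 232 to 224 bases before the start and the cAMP response element at 159 to 152 bases before it. Those letters were found in 0.301% and 1.55% of all 32851 windows of this length, and in no other window of the set. The RE1 right arm, in 5.28% of all windows, was found in the set only before Gria2. The E-box letters, in 13.0% of all windows, were found in 10 of the 34 windows, each of a different gene, Sv2a and a second, downstream start of Syt1 among them. The Syt11 window and the upstream Syt1 window hold none of the 4. A match is a description of letters, and the arrays carry no measurement of binding at these sites.

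In Ednrb null hindgut, 4 of the 35 genes changed: the synaptotagmin genes Syt1 and Syt11 fell, and the vesicle glycoprotein gene Sv2a and the sodium channel gene Scn3a rose. The Ednrb NCC null hindgut showed lower Syt1 and Syt11, both called, and no gene of the set rose. Between the mutants 1 gene differed, Scn3a, which was 3.12-fold higher in Ednrb null. The other 31, 33 and 34 genes did not pass the test, among them Syp, Syn1, Syn2, Stx1a and Mapt, which are commonly used to mark neurons. Of these Syp, Syn1, Syn2 and Mapt lay in the dimmest 40% of genes, where RMA narrows differences, so a fall could be understated. The mutants were compared with the same 3 wild type arrays, so their values against wild type are given side by side and are not independent.

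Each count is set against the share of all genes called in the same comparison and direction. The 2 genes that fell in Ednrb null are 5.71% of the set, against 2.39% of all genes called lower, and the 2 that rose are 5.71% against 2.65%. In Ednrb NCC null the 2 that fell are 5.71% of the set against 1.25% of all genes, and limma called 0 higher against 3.70% of all genes, with 7 genes of the set at an unadjusted p under 0.05 in either direction. Between the mutants limma called 0 lower in Ednrb null against 4.46% of all genes, with 3 at an unadjusted p under 0.05 in either direction, and the 1 called higher is 2.86% against 2.07%. With 35 genes a single call is a share of 2.86%, so none of these shares is read as particular to the set.

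**Figure D1:**
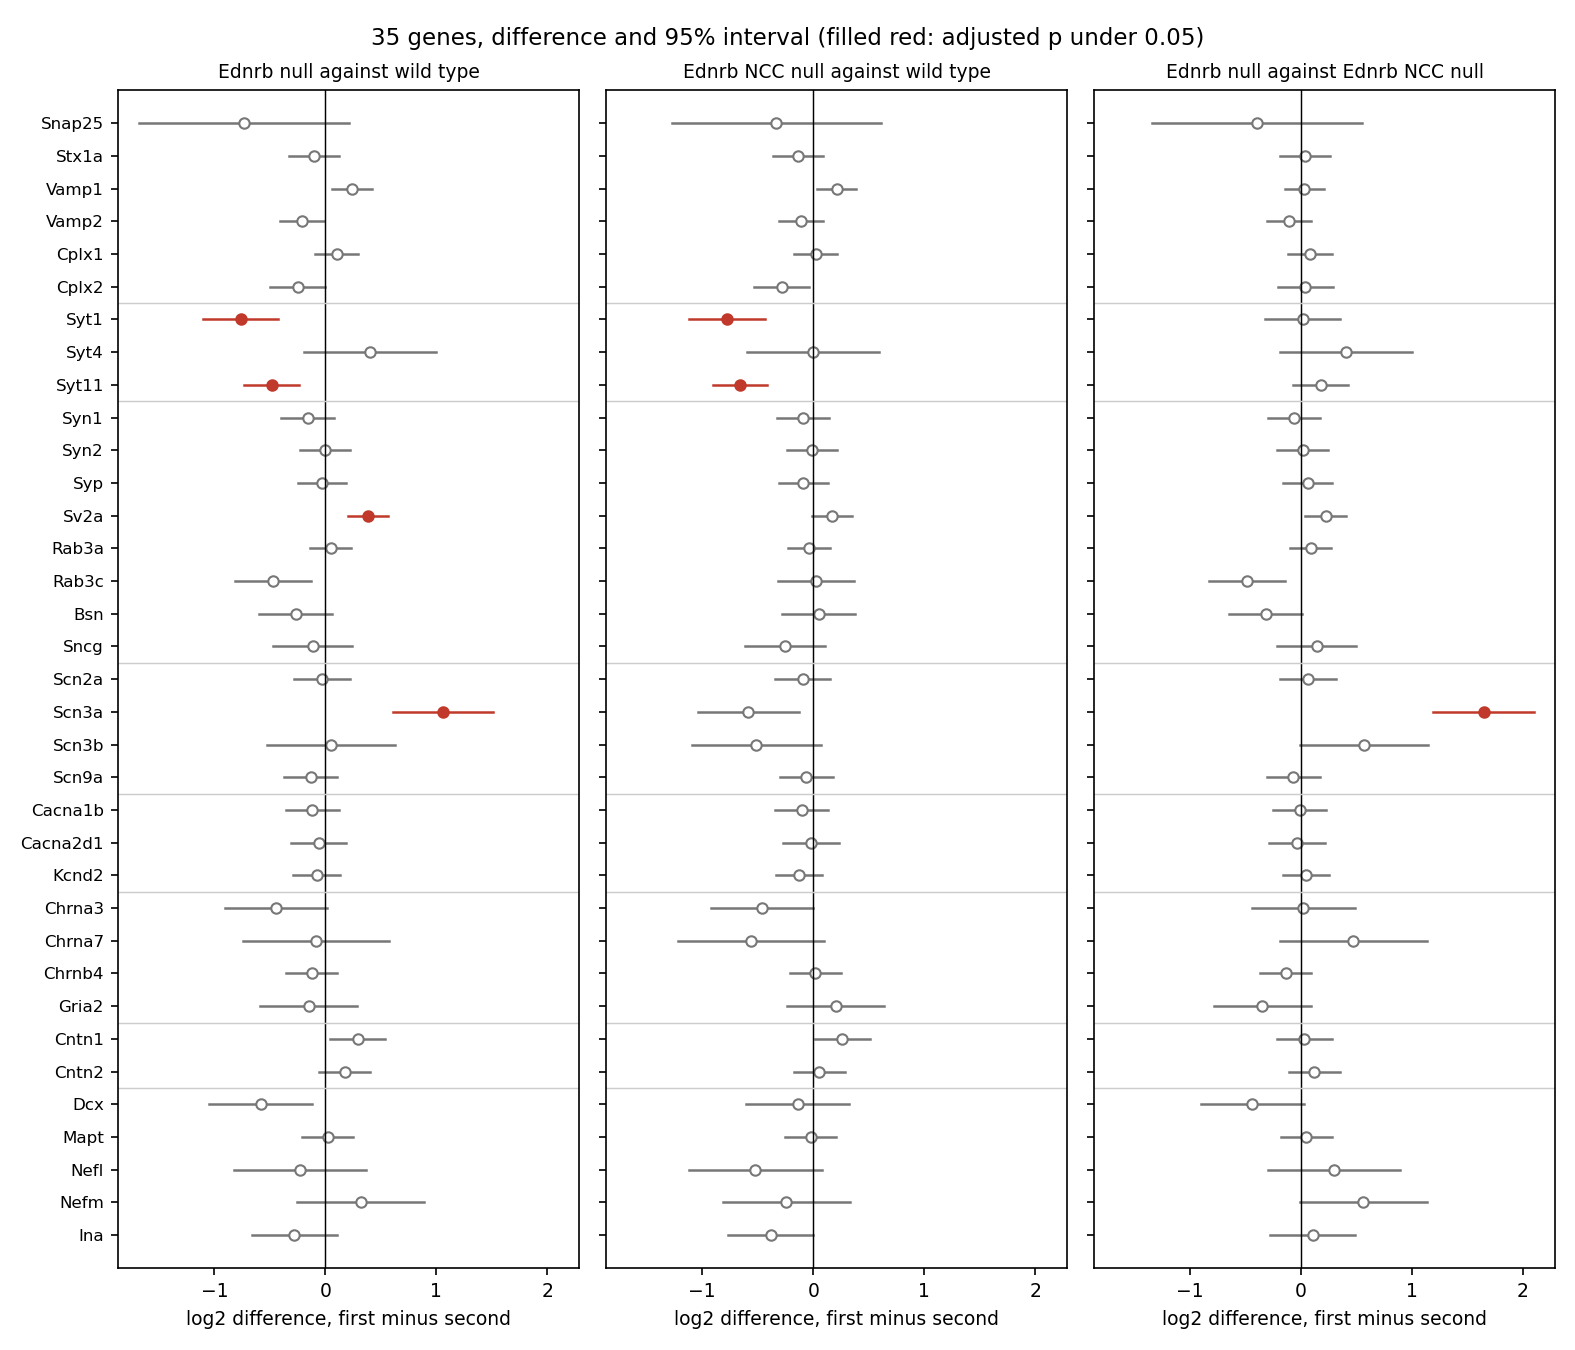
Log2 difference (point) and 95% interval (line) of the 35 genes in the 3 comparisons, grouped by role from the SNARE genes at the top to the cytoskeleton at the bottom. Filled red points mark the calls at an adjusted p under 0.05: 4 in the left panel, 2 in the middle panel and 1 in the right panel.

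Synaptotagmins are vesicle proteins with paired C2 domains. Syt1 encodes the fast calcium sensor for transmitter release. Its log2 level was 7.29, 7.44 and 7.74 in wild type 1B, 1C and 1D, 6.46, 6.93 and 6.80 in Ednrb null 29, 37 and 41, and 6.94, 6.69 and 6.51 in Ednrb NCC null 2, 5 and 6. All 6 mutant arrays lay below all 3 wild type arrays, and the mutants overlapped each other. Syt1 fell by 0.76 in Ednrb null (SE 0.15, 1.70-fold, limma adjusted p = 0.0175) and by 0.78 in Ednrb NCC null (SE 0.15, 1.71-fold, limma adjusted p = 0.0179). The difference between the mutants was 0.01, with a 95% interval from -0.33 to 0.35.

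Syt11 encodes a synaptotagmin that does not bind calcium and acts in vesicle trafficking, in neurons and in other cells. Its level was 8.40, 8.17 and 8.61 in wild type, 7.83, 7.88 and 8.02 in Ednrb null, and 7.69, 7.81 and 7.71 in Ednrb NCC null, in the same array order. The 3 groups did not overlap: wild type lay highest and Ednrb NCC null lowest. Syt11 fell by 0.48 in Ednrb null (SE 0.11, 1.40-fold, limma adjusted p = 0.0315) and by 0.66 in Ednrb NCC null (SE 0.11, 1.58-fold, limma adjusted p = 0.00908). The difference between the mutants, 0.17 with a 95% interval from -0.07 to 0.42, did not pass (limma adjusted p = 0.442).

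Syt4, a synaptotagmin of dense-core vesicles, did not follow them. Its level was 5.56, 5.48 and 5.60 in wild type, 5.56, 6.80 and 5.5 in Ednrb null and 5.36, 5.64 and 5.63 in Ednrb NCC null. Only Ednrb null 37 stood apart, and without a call the mean difference of 0.41 in Ednrb null has a 95% interval from -0.19 to 1.0.

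The lower level of Syt11 was seen on all its probe sets, and that of Syt1 on some. All 5 probe sets of Syt11 gave lower means in both mutants, with differences of -0.29 to -0.61 in Ednrb null and -0.50 to -0.95 in Ednrb NCC null. Over all probe sets tested, 3 of the 5 were called in Ednrb null and 4 in the Ednrb NCC null. Syt1 has 4 probe sets, of mean log2 level 6.98, 5.09, 4.92 and 4.77. The brightest and the dimmest both gave lower means, the dimmest by -0.67 in Ednrb null and -0.49 in the Ednrb NCC null. The 2 between them differed by 0.05 and -0.07 in Ednrb null and by -0.03 and -0.05 in Ednrb NCC null. The labels do not say which transcripts each probe set reads.

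**Figure D2:**
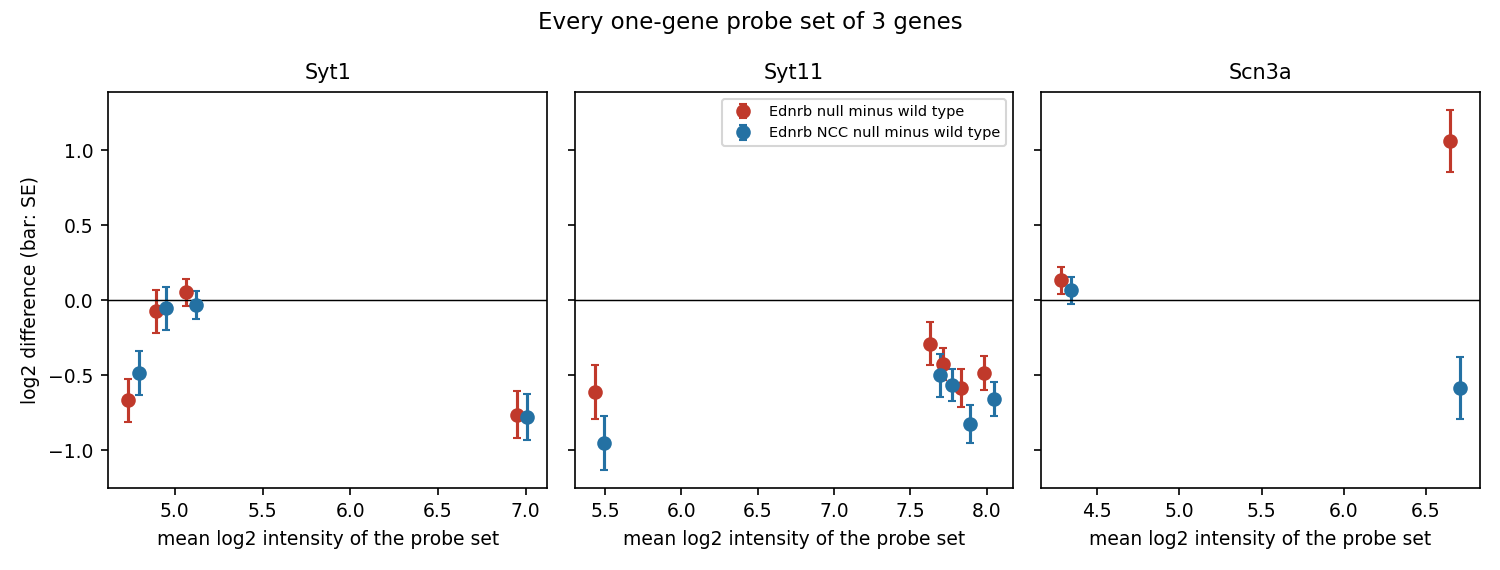
Log2 difference against wild type (y axis, bars are SE) of every one-gene probe set of Syt1, Syt11 and Scn3a by its mean log2 intensity (x axis), for Ednrb null in red and Ednrb NCC null in blue. All 5 Syt11 probe sets lie below 0, 2 of the 4 Syt1 probe sets lie near 0, and the dim Scn3a probe set does not show the differences of the bright one.

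Calls of Syt1 and Syt11 in Ednrb null depended on single arrays. Without wild type 1D the difference of Syt1 was -0.64 (limma adjusted p = 0.0537) and without Ednrb null 29 it was -0.63 (limma adjusted p = 0.0671). Its adjusted p ranged from 0.00827 to 0.819 over the alternatives, the highest with the second brightest probe set. Syt11 in Ednrb null missed the threshold without wild type 1B, wild type 1D, Ednrb null 29, Ednrb null 37 or Ednrb NCC null 6, with differences of -0.37 to -0.48, and its limma adjusted p ranged from 0.00731 to 0.370 over the alternatives. In Ednrb NCC null, Syt11 was called under all 19 alternatives, with differences of -0.55 to -0.83. Syt1 there was called under 15 of 18 and missed without Ednrb NCC null 5 (-0.77, limma adjusted p = 0.0730), without Ednrb NCC null 6 (-0.67, limma adjusted p = 0.0841) and with its second brightest probe set.

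The SNARE core and its complexins are the fusion machine itself. Of these 6 genes, limma called 0 in any of the 3 comparisons, and at an unadjusted p under 0.05 Vamp1 and Vamp2 passed in Ednrb null and Vamp1 and Cplx2 in Ednrb NCC null. Snap25, the plasma membrane SNARE, had the widest spread of the set. Its level was 6.14, 4.0 and 4.91 in wild type, 4.17, 4.75 and 3.94 in Ednrb null and 5.10, 4.66 and 4.30 in Ednrb NCC null. The groups overlapped, with wild type 1B far above the others and wild type 1C second lowest of all 9. The difference was -0.73 in Ednrb null (95% interval -1.68 to 0.21, limma adjusted p = 0.390) and -0.33 in Ednrb NCC null (-1.28 to 0.61), so these arrays do not settle a change of 2-fold or more. Snap25 was among the dimmest genes of the set, at the 11.4th percentile of all genes by mean level.

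Vamp1 and Vamp2 encode the vesicle SNAREs synaptobrevin. Vamp1 lay at 7.64, 7.69 and 7.71 in wild type, 7.89, 7.89 and 7.98 in Ednrb null and 7.92, 7.78 and 7.98 in Ednrb NCC null. Every mutant array lay above every wild type array, but the differences of 0.24 (limma adjusted p = 0.123) and 0.21 (limma adjusted p = 0.167) did not pass. Vamp2 gave -0.21 in Ednrb null and -0.11 in the Ednrb NCC null. Cplx2 gave -0.25 and -0.29 (0.05 and -0.22 on its second probe set), and Cplx1, the other complexin, 0.10 and 0.02. Stx1a, the plasma membrane syntaxin, gave -0.10 and -0.14, with 95% intervals from -0.33 to 0.13 and from -0.36 to 0.09.

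Among the 8 genes of the vesicle coat, its glycoproteins and the active zone, Sv2a alone was called. SV2A is a membrane glycoprotein present on nearly all synaptic vesicles and on endocrine granules. Its level was 7.69, 7.68 and 7.66 in wild type, 8.08, 8.18 and 7.93 in Ednrb null and 7.87, 7.86 and 7.79 in Ednrb NCC null. The 3 groups did not overlap, and wild type lay lowest with a within-group SD of 0.01. Sv2a rose by 0.39 in Ednrb null (SE 0.08, 1.31-fold, limma adjusted p = 0.0228). The Ednrb NCC null difference was 0.17 (95% interval -0.01 to 0.35, limma adjusted p = 0.300), and between the mutants it was 0.22 (0.04 to 0.40, limma adjusted p = 0.161). The array has 1 probe set for Sv2a, so the rise has no check from another. It missed the threshold without wild type 1B or 1D or Ednrb null 29 or 37, with differences of 0.33 to 0.39, and its limma adjusted p ranged from 0.0116 to 0.362 over the alternatives.

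Rab3c, a small GTPase of secretory vesicles, lay at 7.14, 7.20 and 7.37 in wild type, 6.78, 7.05 and 6.47 in Ednrb null and 7.55, 7.09 and 7.14 in Ednrb NCC null. On this brightest probe set of Rab3c, Ednrb null lay below every array of both other groups. The difference of -0.47 from wild type (limma adjusted p = 0.121) and of -0.49 from Ednrb NCC null (limma adjusted p = 0.0937) did not pass, and the second passed with array weights (-0.44) and without Ednrb null 37 (-0.63), where its limma adjusted p was 0.0483 and 0.0430 in a range of 0.0430 to 0.604. The second Rab3c probe set, of mean log2 level 6.60 against 7.09, did not separate the groups. It lay at 6.49, 6.56 and 6.56 in wild type, 6.37, 6.69 and 6.44 in Ednrb null and 6.54, 6.92 and 6.87 in Ednrb NCC null. It gave -0.04 against wild type and -0.28 between the mutants. Bsn, the active zone scaffold Bassoon, lay at 7.85, 7.84 and 7.22 in Ednrb null against 7.87 to 7.94 in wild type. Ednrb null 41 lay far below the other 8 arrays, and the mean difference was -0.27.

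The remaining genes of this role gave differences from wild type between -0.25 and 0.05. Syp (synaptophysin), the most used vesicle marker, gave -0.03 in Ednrb null (95% interval -0.25 to 0.19) and -0.09 in Ednrb NCC null (-0.31 to 0.13). Syn1 and Syn2, the synapsins that tether vesicles to the cytoskeleton, gave -0.16 and 0.00 in Ednrb null and -0.09 and -0.01 in Ednrb NCC null. By mean level Syp, Syn1 and Syn2 lay at the 31.4th, 24.7th and 20.9th percentile of all genes, where RMA narrows differences. Rab3a, the main vesicle Rab of neurons, gave 0.05 and -0.04. Sncg (gamma-synuclein) gave -0.12 and -0.25.

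**Figure D3:**
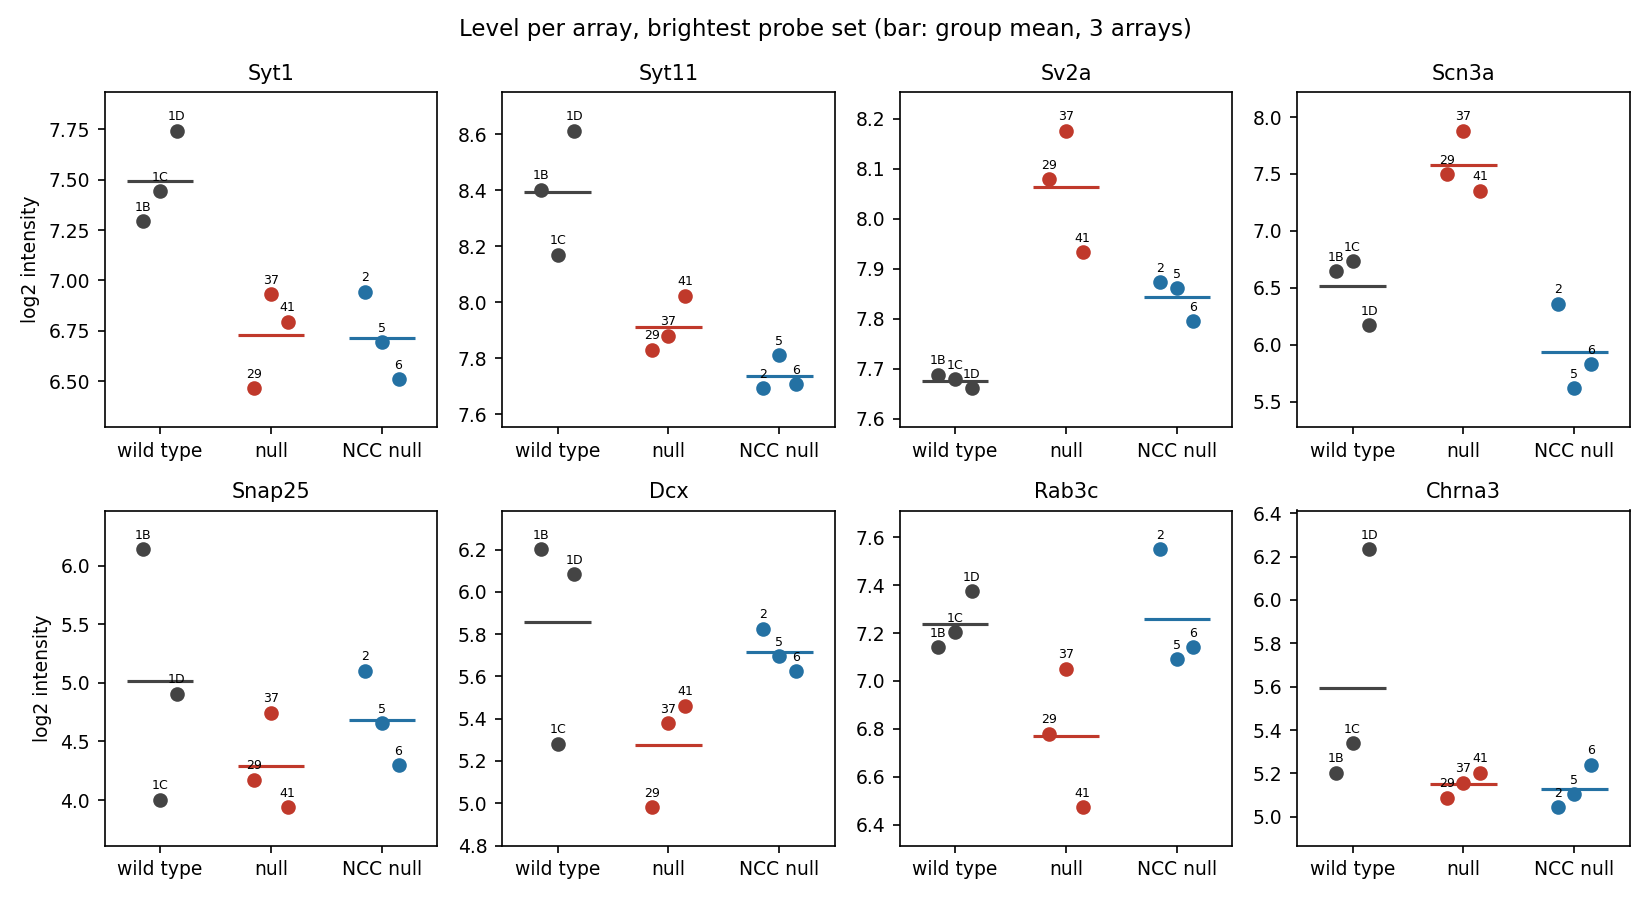
Log2 intensity (y axis, a separate scale for each gene) on each array, labelled by its number, for the 4 called genes (top row) and 4 genes that did not pass (bottom row). Horizontal bars are group means over 3 arrays. In Syt1 and Syt11 all mutant arrays lie below wild type, Scn3a is high only on the Ednrb null arrays, and in Snap25 the wild type arrays run from 4.0 to 6.14 and overlap both mutants.

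Scn3a had the largest difference of the set in Ednrb null and between the mutants. It encodes the alpha subunit Nav1.3, a sodium channel best known from the embryonic nervous system and also made by endocrine cells. Its level was 6.65, 6.73 and 6.17 in wild type, 7.50, 7.88 and 7.35 in Ednrb null and 6.36, 5.62 and 5.83 in Ednrb NCC null. All Ednrb null arrays lay above all others, while Ednrb NCC null overlapped wild type at its upper end. Scn3a rose by 1.06 in Ednrb null (SE 0.21, 2.08-fold, limma adjusted p = 0.0141). In Ednrb NCC null the difference was -0.58 (95% interval -1.04 to -0.13, limma adjusted p = 0.140).

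Set directly against each other, Scn3a was 1.64 higher in Ednrb null than in Ednrb NCC null (SE 0.21, limma adjusted p = 0.00162). This was the only gene of the set that differed between the mutants. Its second probe set, of mean log2 level 4.31 against 6.68, did not show the difference: 0.13 in Ednrb null, 0.07 in the Ednrb NCC null and 0.07 between them. The rise against wild type missed the threshold without Ednrb null 37 (0.91, limma adjusted p = 0.0596, in a range of 0.00896 to 0.497 over the alternatives). The difference between the mutants was called under 17 of 18 alternatives, the exception being the second probe set.

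Of the other sodium channel genes limma called 0, and 0 passed at an unadjusted p under 0.05. Scn3b, an auxiliary beta subunit, lay at 5.32, 4.91 and 5.83 in wild type, 5.09, 6.05 and 5.07 in Ednrb null and 4.92, 4.81 and 4.80 in Ednrb NCC null. Ednrb NCC null lay below every Ednrb null array, with a difference between the mutants of 0.56 (95% interval -0.01 to 1.14, limma adjusted p = 0.267), and Ednrb null 37 was the highest of the 9. The second Scn3b probe set, of mean log2 level 4.24, gave -0.06 between the mutants. Scn2a (Nav1.2) gave -0.03 in Ednrb null and -0.10 in the Ednrb NCC null. Scn9a (Nav1.7), a channel of sensory and sympathetic neurons, gave -0.13 and -0.06 and was the dimmest gene of the set, at the 11.2th percentile of all genes.

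The 3 calcium and potassium channel genes lay between -0.12 and -0.06 in Ednrb null and between -0.13 and -0.02 in Ednrb NCC null, with 0 called by limma and 0 at an unadjusted p under 0.05. Cacna1b, the pore subunit of the N-type calcium channel that feeds transmitter release, gave -0.12 and -0.10. Kcnd2 (Kv4.2), an A-type potassium channel, gave -0.08 and -0.13. Cacna2d1, the alpha2delta-1 subunit, gave -0.06 and -0.02 by its brightest probe set, of mean log2 level 10.11. Another probe set of the gene, at 4.36, lay at 4.71, 4.68 and 4.64 in wild type, 3.61, 4.02 and 3.97 in Ednrb null and 4.49, 4.62 and 4.55 in Ednrb NCC null. It gave -0.81 against wild type (limma adjusted p = 0.00152 over all probe sets) and -0.69 between the mutants (limma adjusted p = 0.00584). The 4 remaining probe sets gave -0.23 to 0.03 in Ednrb null, so the gene is reported as uncertain.

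Of the 4 transmitter receptor genes limma called 0, with Chrna3 at an unadjusted p under 0.05 in Ednrb NCC null. Chrna3 and Chrnb4 encode the subunits of the ganglionic nicotinic receptor. Chrna3 lay at 5.20, 5.34 and 6.23 in wild type, and at 5.05 to 5.24 on the 6 mutant arrays. Wild type 1D stood alone at the top and wild type 1B overlapped the mutants. The differences were -0.44 (95% interval -0.91 to 0.02) and -0.46 (-0.93 to -0.0004). Its second probe set lay at 4.98, 5.96 and 6.05 in wild type and at 4.68 to 5.07 in the mutants, with differences of -0.76 and -0.75 that did not pass (limma adjusted p = 0.111 and 0.123). Chrnb4 gave -0.12 and 0.02.

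Chrna7 encodes the subunit of the homomeric alpha7 nicotinic receptor. It lay at 7.02, 5.83 and 5.59 in Ednrb NCC null against 6.52 to 6.83 in wild type and 6.29 to 6.89 in Ednrb null. Ednrb NCC null 2 was the highest of the 9 arrays and the other 2 were the lowest. The difference of -0.56 (95% interval -1.22 to 0.10) became -0.99 without Ednrb NCC null 2 (limma adjusted p = 0.0154, in a range of 0.0154 to 0.970 over the alternatives). The second probe set of Chrna7, of mean log2 level 6.46 against 6.49, did not show this. It gave -0.02 in Ednrb NCC null, whose arrays lay at 6.43, 6.46 and 6.56 against 6.34, 6.32 and 6.85 in wild type. Gria2, an AMPA-type glutamate receptor subunit, gave -0.15 in Ednrb null and 0.20 in the Ednrb NCC null.

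The axonal adhesion genes both had higher means in the mutants. Cntn1 (contactin 1) lay at 6.83, 6.74 and 6.91 in wild type, 7.10, 7.23 and 7.03 in Ednrb null and 7.28, 7.13 and 6.85 in Ednrb NCC null. Ednrb null lay above wild type without overlap, and the differences of 0.29 (limma adjusted p = 0.183) and 0.26 (limma adjusted p = 0.226) did not pass. Cntn2 (TAG-1) gave 0.17 and 0.05.

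Of the 5 cytoskeletal genes limma called 0, with Dcx at an unadjusted p under 0.05 in Ednrb null. Dcx (doublecortin), a microtubule protein of migrating neurons, lay at 6.20, 5.28 and 6.08 in wild type, 4.98, 5.38 and 5.46 in Ednrb null and 5.83, 5.69 and 5.62 in Ednrb NCC null. Wild type 1C fell among the Ednrb null arrays, and the other wild type arrays lay above all mutants. The difference of -0.58 in Ednrb null (95% interval -1.04 to -0.12) became -0.87 without wild type 1C (limma adjusted p = 0.00420, in a range of 0.00420 to 0.856 over the alternatives). The dimmer probe sets of Dcx, of mean log2 level 4.80, 4.55 and 4.23, gave -0.32, -0.06 and -0.02 in Ednrb null and did not pass.

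Neurofilament genes were split by array more than by group. Nefl, the light chain, lay at 8.61, 8.50 and 9.12 in wild type, 8.13, 9.22 and 8.20 in Ednrb null and 8.55, 8.14 and 7.97 in Ednrb NCC null. Its differences were -0.23 and -0.52, and its second probe set gave 0.37 and 0.29, of opposite sign. Nefm, the medium chain, lay at 7.67, 8.03 and 8.38 in wild type, 8.06, 8.79 and 8.17 in Ednrb null and 8.31, 7.34 and 7.70 in Ednrb NCC null, with differences of 0.32 and -0.24. Ednrb null 37 was the highest array in both. Ina (alpha-internexin) gave -0.28 and -0.38, and Mapt (tau) 0.02 (95% interval -0.21 to 0.25) and -0.02 (-0.25 to 0.21).

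Over the whole set, the median difference from wild type was -0.10 for the Ednrb null arrays and -0.10 for the Ednrb NCC null arrays, against medians over all genes of 0.04 and 0.02. Differences below 0 numbered 24 of 35 in Ednrb null (68.6%, against 39.8% of all genes) and 26 of 35 in Ednrb NCC null (74.3%, against 44.0%). Between the mutants the median was 0.04, against 0.01 over all genes, and 11 of 35 lay below 0 (31.4%, against 47.5% of all genes). Levels of these genes come from the same RNA samples and are not independent of each other.

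At an unadjusted p under 0.05, 9 genes of the set passed in Ednrb null (25.7%, against 19.2% of all genes), 7 in Ednrb NCC null (20.0% against 19.6%) and 3 between the mutants (8.57% against 19.7%). Groups did not overlap in 8 genes for Ednrb null against wild type (22.9%, against 22.6% of all genes), 4 for Ednrb NCC null (11.4% against 21.9%) and 6 between the mutants (17.1% against 24.2%). These shares were near or below the background. The 95% interval of the difference lay within 2-fold in either direction for 30 genes in Ednrb null and 29 in the Ednrb NCC null, and within 1.5-fold for 20 and 21.

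The highest array for a gene was a wild type array in 17 of 35 genes, against 27.6% of all genes. These were split between wild type 1D, highest for 9 (25.7%, against 13.9% of all genes), and wild type 1B, highest for 8 (22.9% against 6.59%). Wild type 1C was highest for 0, against 7.05% of all genes. Ednrb null 37 was highest for 7 (20.0% against 14.3%), more than the other 2 Ednrb null arrays together. By mean level 22 of the 35 genes lay in the dimmest 40% of genes, where RMA narrows differences. Of the 4 called genes, Syt1 and Scn3a lay in this range and Syt11 and Sv2a above it.

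**Figure D4:**
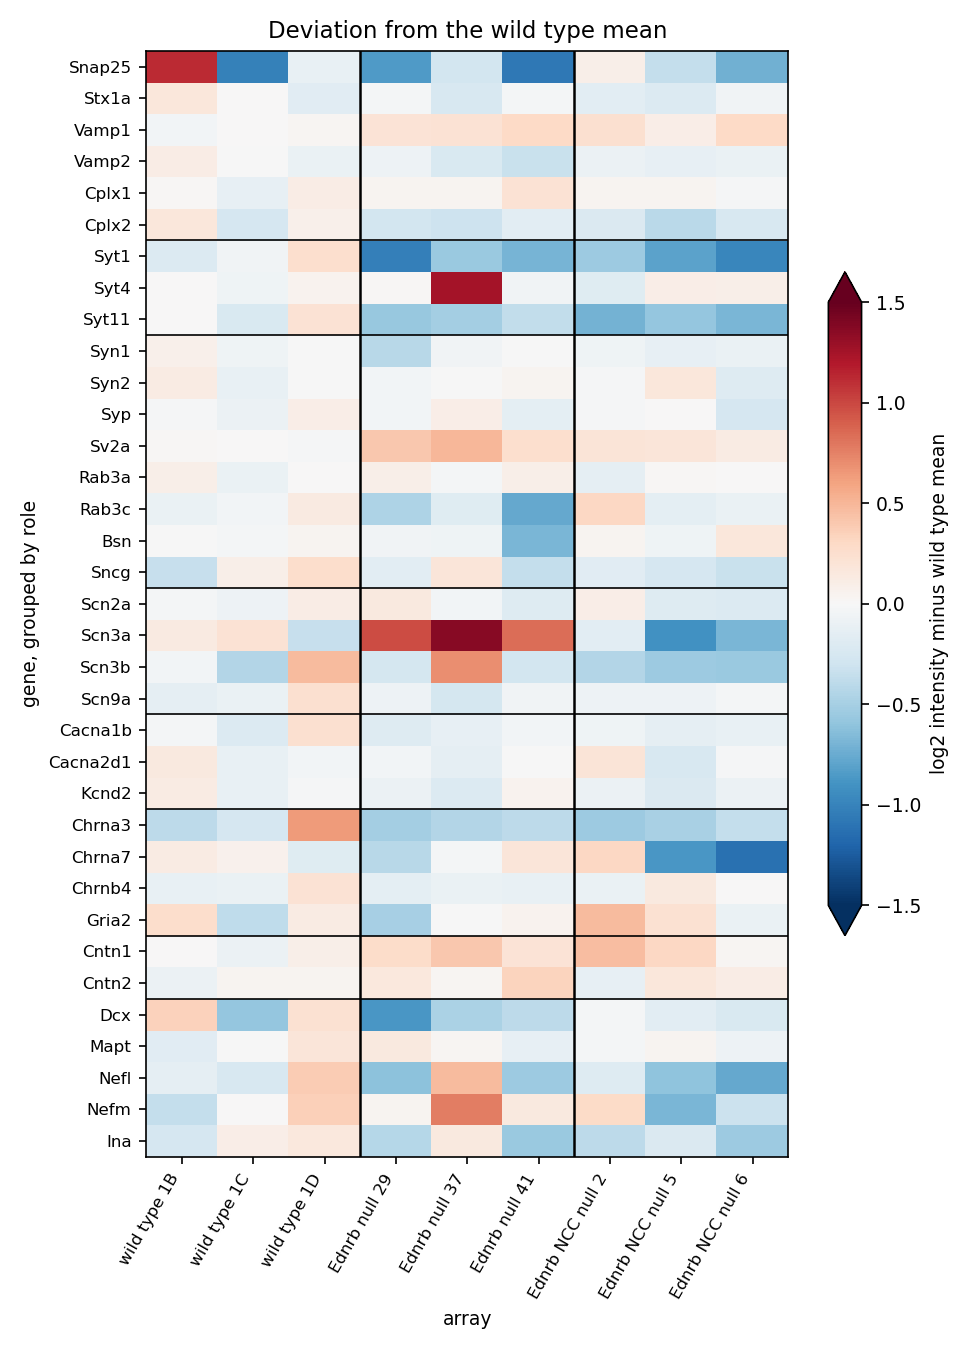
Log2 intensity minus the wild type mean for each of the 35 genes (rows, grouped by role) on each of the 9 arrays (columns), with red above and blue below the wild type mean. The blue of Syt1 and Syt11 spans all 6 mutant arrays, the red of Scn3a spans the 3 Ednrb null arrays, and single dark cells mark 1 array, such as Snap25 in wild type 1B and Syt4 in Ednrb null 37.

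Related genes outside the set were taken from 5 lists of 121 genes, 108 of them measured, also drawn up with earlier results known. Among 20 measured genes of fusion and release, limma called 2 lower in Ednrb null, 0 in the Ednrb NCC null and 0 between the mutants. These were Pclo (-0.74), the active zone scaffold Piccolo, and Rab3b (-0.44, limma adjusted p = 0.0488). The second probe set of Pclo gave -0.01, and the call of Rab3b was lost without any 1 of 8 of the 9 arrays, with values of -0.32 to -0.54 over the arrays left out. Among 19 genes of vesicle recycling and loading, Amph fell in Ednrb null. Amph encodes amphiphysin, which bends membrane during vesicle endocytosis. It lay at 8.33, 8.53 and 8.67 in wild type, 6.46, 7.22 and 7.15 in Ednrb null and 7.75, 8.0 and 7.72 in Ednrb NCC null, with all 3 groups apart. Amph fell by 1.57 in Ednrb null (limma adjusted p = 0.000672). It gave -0.68 in Ednrb NCC null (limma adjusted p = 0.0551) and was lower in Ednrb null than in Ednrb NCC null by a log2 difference of -0.88 (limma adjusted p = 0.0157). Syngr1 (synaptogyrin 1) was also lower in Ednrb null than in Ednrb NCC null (-0.44, limma adjusted p = 0.0476). That call was lost without any 1 of 7 of the 9 arrays, with values of -0.36 to -0.51, and the call of Amph between the mutants was lost without Ednrb NCC null 5 (-0.79).

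Of 27 measured voltage-gated channel genes, 1 fell and 1 rose in each comparison. Kcnip4, an auxiliary protein of A-type potassium channels, lay at 7.63, 7.91 and 7.60 in wild type, 8.48, 8.66 and 8.02 in Ednrb null and 8.63, 8.77 and 8.50 in Ednrb NCC null. It rose by 0.67 and 0.92 (limma adjusted p = 0.0309 and 0.00879), the first lost without wild type 1B or 1D, Ednrb null 29 or 37 or Ednrb NCC null 2, with values of 0.54 to 0.86 over the arrays left out. Cacna2d2, the alpha2delta-2 calcium channel subunit, fell by 0.40 in Ednrb null and was lower there than in Ednrb NCC null by a log2 difference of -0.38. Scn2b, a sodium channel beta subunit, fell by 0.54 in Ednrb NCC null and was 0.39 higher in Ednrb null. The second probe sets gave -0.04 and 0.04 for Cacna2d2 and -0.17 and 0.16 for Scn2b, and apart from that of Scn2b in Ednrb NCC null these calls were lost without single arrays, 4 to 6 of the 9, with limma adjusted p up to 0.115. Of 18 ligand-gated channel genes limma called 0 in all 3 comparisons. Of 24 genes of neuronal cytoskeleton and adhesion, 2 fell in Ednrb null and 4 in the Ednrb NCC null, with a median of -0.22 and -0.24. L1cam, an axonal adhesion molecule, fell in both (-1.14 and -0.89), as did Elavl4, an RNA-binding protein made by neurons (-1.52 and -1.56). Nrcam (-1.12) and Gap43 (-1.09) fell in Ednrb NCC null, and Crmp1, a growth cone protein, was 0.66 higher in Ednrb null than in Ednrb NCC null. The second probe sets of L1cam gave -0.03 and -0.14 and that of Nrcam -0.09. Single arrays ended the calls in Ednrb NCC null of L1cam (wild type 1B, Ednrb NCC null 5 or 6, values of -0.85 to -0.89), Nrcam (Ednrb NCC null 5, -1.11) and Gap43 (Ednrb NCC null 6, -0.97), and that of Crmp1 was lost without any 1 of 5 arrays, with values of 0.48 to 0.68.

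Markers of several cell types of the gut also differed between the groups. Of 10 measured markers of enteric crest, 7 fell in Ednrb null and 3 in the Ednrb NCC null. The 7 include Ednrb, the gene mutated there, so its fall is no independent sign. Their summed intensity without Ednrb was 5408 to 7433 in wild type, 3743 to 4337 in Ednrb null and 4543 to 5736 in Ednrb NCC null. Calls of Gfra1 were lost without any 1 of 7 arrays in Ednrb null and 8 in the Ednrb NCC null, that of Foxd3 in Ednrb null without any 1 of 4, and the second probe sets of Erbb3 (-0.08) and Ngfr (-0.26) did not pass in Ednrb null. Ret, the GDNF receptor of enteric crest, fell in both (-3.23 and -3.31, and -0.69 and -0.82 on its second probe set). In the set no gene fell by more than 0.78 on its brightest probe set, while dimmer ones reached -0.95 (Syt11 in Ednrb NCC null). Of 8 markers of glia and Schwann cell precursors 2 fell in each mutant, with summed intensities of 1096 to 1764, 622 to 751 and 965 to 1004. Of 11 markers of enteroendocrine cells, which also make Syt, Snap25 and Scn genes, Insm1 fell by 2.01 in Ednrb null and 1.44 in the Ednrb NCC null, and Neurog3 fell by 1.21 in Ednrb null. The Neurog3 call was lost without any 1 of 6 arrays (limma adjusted p up to 0.124) and its second probe set gave 0.16. Neurog3 averaged 6.95 in Ednrb NCC null against 6.58 in wild type. The median of the 11 was -0.30 in Ednrb null, where 9 did not pass, and 0.08 in the Ednrb NCC null, where 10 did not pass. Their summed intensity was 3176 to 4251, 3024 to 3582 and 2366 to 3052. Of the 5 measured markers of extrinsic sympathetic or sensory neurons limma called 0, with summed intensities of 929 to 1886, 1093 to 1408 and 1202 to 1402.

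Non-neural markers differed too. Of 8 gut epithelium markers 1 fell in Ednrb null and 4 rose in Ednrb NCC null, with summed intensities of 22035 to 23695 in wild type, 17972 to 24758 in Ednrb null and 28810 to 33148 in Ednrb NCC null. Among the 4 that rose, Cdx2 lost its call without any 1 of 8 arrays, Krt8 without any 1 of 5 and Vil1 without any 1 of 3, and Lypd8 kept it. Of 8 smooth muscle markers 1 fell in Ednrb null and 1 rose in Ednrb NCC null, with sums of 47409 to 53113, 39257 to 49972 and 56048 to 64721. These calls, of Cnn1 and Tagln, were each lost without any 1 of 7 arrays. Of 8 skeletal muscle markers 0 were called by limma against wild type, with sums of 952 to 2800, 894 to 1085 and 1989 to 3027. Of 6 mesothelium markers 1 rose in Ednrb NCC null, with sums of 583 to 2530, 2776 to 3287 and 3199 to 3669. That call, of Msln, was lost without any 1 of 3 arrays. Of 8 macrophage markers 2 rose in Ednrb NCC null, with sums of 1982 to 2907, 2084 to 2418 and 2904 to 3206. The call of Mrc1 was lost without any 1 of 4 arrays, and Pf4 kept its own. Of 3 markers of interstitial cells of Cajal limma called 0, with sums of 8400 to 9866, 9019 to 10878 and 8824 to 9869. Between the mutants more markers were called, all lower in Ednrb null: 5 of gut epithelium, 3 each of macrophages and enteroendocrine cells, 2 each of smooth muscle (Cnn1 -1.01, Tagln -0.92), skeletal muscle (Actc1 -1.95, Tnnt1 -0.98) and crest (Ednrb among them), and 1 of glia. Several of these calls were lost when 1 array was left out. They were Aif1 and Mrc1 (any 1 of 6 arrays), Chga, Nkx2-2 and Tnnt1 (5), Krt18 and Actc1 (4), Erbb3 (2) and Fabp7 (1). The part of these cell types in the values of the set was not tested.

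RNA quality also moved with 1 group. The log2 ratio of the 3′ to the 5′ control probe sets of Actb, which rises as RNA is shortened, was 0.87 ± 0.06 (SD, n = 3) in Ednrb null, 1.18 ± 0.13 in wild type and 1.21 ± 0.18 in Ednrb NCC null. Ednrb null lay below all arrays of both other groups, with an exact permutation p of 0.1 against each, 2-sided, which is the smallest that 3 against 3 can give. Because this ratio separates Ednrb null from both other groups, it cannot be told apart from the genotype in either comparison. Fits with the ratio therefore do not set RNA quality apart from genotype there, also not between the mutants. With the ratio as a covariate limma called 0 genes of the set in Ednrb null, with Syt1 at -0.78, Syt11 at -0.49, Sv2a at 0.36 and Scn3a at 1.39. Over all 18193 genes that fit called 131 in Ednrb null against 917 without the ratio. It called 947 against 902 in Ednrb NCC null and 215 against 1187 between the mutants. The loss of calls in Ednrb null is therefore not read as particular to the set. Against wild type, Ednrb NCC null kept both calls, with Syt1 at -0.78 and Syt11 at -0.66, and between the mutants Scn3a was 2.01 higher in Ednrb null (limma adjusted p = 0.0229).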

How the data were processed

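The 9 arrays of embryonic mouse hindgut RNA (Affymetrix MOE430 version 2) were grouped by genotype as the sample labels give it, 3 to a group. Per the labels' protocols, RNA was taken up in TRIzol, cleaned on a column, and 150 ng were amplified to biotin-labelled cRNA. The values deposited by the authors are 1 intensity per probe set and array, on a linear scale from 5.69 to 61637, and RMA is the method named in the submitters' processing notes. RMA corrects background, gives all arrays the same distribution of probe intensities, then merges the probes of each probe set, and narrows differences of dim probe sets. The RMA version, the software and the chip files were not given in the sources used here. With no counts behind the values, it is the number of arrays that limits precision.

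Intensities were converted to log2 with no pseudocount, further normalization or filter. Of 45101 probe sets, 34945 named 1 gene in the platform's gene table, 932 named several, 9160 were not in it and 64 were controls. The brightest one-gene probe set stood for each of 18193 genes. Group means were estimated from the 9 arrays together in limma 3.58.1 (lmFit, then eBayes; R 4.3.3), tests were 2-sided, with Benjamini-Hochberg adjustment of p over all genes. The script was tested on simulated data. No 2 arrays held identical values.

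The 35 genes, the 5 lists of related genes, the 10 marker lists, the motifs and the rule for named genes were chosen with earlier results of these data known. The rule names every called gene of the set with its array values, then the largest differences that did not pass. It also takes other probe sets where a gene was called or signs differ, and up to 4 called genes of each other list by p. A dim probe set of Cacna2d1 was named after its values were seen. Altogether 12 kinds of alternative were tried, covering array scale, filter, pseudocount, groups fitted, spread model, weights, probe set, RNA quality, single arrays and threshold. Genes without a one-gene probe set were not analysed here.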

Additional observations from a re-analysis of the deposited data

Results flagged for a closer look

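Scn3a differed between the mutants in the direct test: it was 1.64 higher on the log2 scale in Ednrb null than in Ednrb NCC null (95% interval 1.19 to 2.10, limma adjusted p = 0.00162), and all 3 Ednrb null arrays lay above all 3 Ednrb NCC null arrays. Against the shared wild type arrays the values were 1.06 and -0.58. The dimmer probe set of the gene gave 0.07 between the mutants.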

How the results depend on the processing

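Calls on this set were sensitive to the probe set, the filter and single arrays. In Ednrb null against wild type, 4 genes were called. The count was 2 without the dimmest 40% of genes (Syt11 and Sv2a, with 13 genes of the set left), 2 with only the 2 groups compared (Syt1 and Scn3a), 2 with the second brightest probe set (Syt11 and Sv2a) and 0 when the Actb ratio entered the fit. Over all genes the same fits called 809 (of 10916 tested), 561, 866 and 131, against 917 in the main fit. Sv2a has 1 probe set, which also stood for it in the second brightest setting, so its call there is no check. The median difference moved to -0.0263 for the second brightest probe set and to -0.0024 for the fit with the Actb ratio. In Ednrb NCC null, 2 genes were called, and 1, Syt11, without the dimmest 40% of genes or with the second brightest probe set. Between the mutants 1 gene was called. The count was 0 without the dimmest 40% of genes, where Scn3a is not tested, and 0 with the second brightest probe set. It was 2 with array weights and 2 at an adjusted p under 0.10, each time with Rab3c added. Leaving out each array gave 1 to 5 calls in Ednrb null, 1 to 3 in Ednrb NCC null and 1 to 2 between the mutants, with medians of -0.134 to -0.0150, -0.129 to -0.0411 and -0.0013 to 0.0685. Over all genes those fits called 477 to 1102, 268 to 1099 and 507 to 1309, against 917, 902 and 1187 with every array.

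With the second brightest probe set the sign turned for Syt1 in Ednrb null (0.0536), Neurog3 in Ednrb null (0.163) and Cacna2d2 between the mutants (0.0384). Of all alternatives for called genes of the set, 112 kept direction and call, 23 lost the call and 1 turned sign. The 112 include the threshold of 0.10, which every gene called at 0.05 passes by definition. They also include Sv2a under the second brightest probe set, where its only probe set was fitted again. Array scale, the pseudocount and eBayes with trend changed no count of called genes in the set by more than 1.5 times. The cause of the other changes was not tested. The groups share no replicate numbers. No paired analysis was possible because the labels give no pairing between the groups.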
